A study of Mus musculus with 18 samples.

Results

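Brain samples overexpressing PLAAT3-PEX11 were compared with wild-type brain samples in a set whose sample names begin with Neuron. The comparison rests on 4 of the 18 libraries of the series, 2 named Neuron-PLA (genotype PLAAT3-PEX11 overexpression) and 2 named Neuron-ctrl (genotype WT). Of the 32941 genes listed, the 11179 with a mean of at least 1 RPKM over these 4 libraries were described and tested. RPKM scales the reads of a gene by its exon length in kilobases and by the total of its library. The other libraries of the series are another overexpression set (PLA1 against Ctrl1, 2 libraries each, also labelled brain), wild-type brain of embryonic days, and cultured neural stem cells with a Pex7 knockdown and its control. For the neuron set the labels give the tissue and the genotype. They do not give the age of the animals, the construct, its promoter or vector, the cells that received it, whether animals were pooled, or how neurons were obtained. No label says whether the replicates are separate animals or cultures. The p-values therefore reflect the spread among these 4 libraries alone, and that spread may be technical.

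PLAAT3 is a phospholipase A and acyltransferase that acts on membrane phospholipids, and its forced expression is known from cultured mammalian cells to lower the number of peroxisomes. PEX11 proteins sit in the peroxisomal membrane and elongate it before the organelle divides. Peroxisomes carry out the first steps of ether lipid synthesis and the oxidation of very long chain fatty acids. In the embryonic cortex, radial glia divide and give rise to projection neurons, while inhibitory interneurons migrate in from the ventral forebrain. Microglia, blood vessels and blood cells share the tissue with both.

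The RPKM values corresponded to library totals of 21007263 and 28104927 reads in Neuron-PLA, against 22356919 and 21725290 reads in Neuron-ctrl. Pearson's r of log2(RPKM + 1) across genes was 0.980 between the Neuron-PLA libraries and 0.982 between the Neuron-ctrl libraries. Between the groups it lay from 0.966 to 0.976. Neuronal genes dominated all 4 libraries. The 26 listed pan-neuronal and cytoskeletal genes summed to 6023 and 6425 RPKM in Neuron-PLA, against 6310 and 6453 RPKM in Neuron-ctrl. Other cell types were present at lower levels. The 20 listed radial glia genes summed to 263 and 293 RPKM in Neuron-PLA, against 440 and 442 RPKM in Neuron-ctrl. For the 18 listed microglia genes the sums were 125 and 114 RPKM in Neuron-PLA, against 179 and 183 RPKM in Neuron-ctrl. Ttr and Folr1, which mark the choroid plexus, were at 0 in all 4 libraries. The libraries therefore held neuronal RNA together with RNA of glia, microglia and vessels, and not of neurons alone. In such bulk samples, fewer cells of a type and less RNA per cell cannot be told apart.

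Plaat3 was raised in both Neuron-PLA libraries. Plaat3 (ENSMUSG00000060675, mm10 chr19:7557459-7588545, plus strand) stood at 19.01 and 20.81 RPKM in Neuron-PLA, against 0.0699 and 0.230 RPKM in Neuron-ctrl. These values came from 2554 and 3741 reads in Neuron-PLA, against 10 and 32 reads in Neuron-ctrl. The difference on the scale of log2(RPKM + 1), which makes changes of low genes look smaller, was 4.19 (SE 0.17, limma adjusted p = 0.000202). The groups did not overlap, and the gene stayed called when any 1 library was left out.

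Pex11a, a PEX11 gene induced by PPAR-alpha ligands in liver, had 5.28 and 5.87 RPKM in Neuron-PLA, against 4.68 and 5.90 RPKM in Neuron-ctrl. These ranges overlap, with a log2 difference of 0.07 (SE 0.17, limma adjusted p = 0.871). Pex11g lay under the level filter, at 0.350 and 0.408 RPKM in Neuron-PLA, against 0.395 and 0.257 RPKM in Neuron-ctrl. The genotype label does not say which PEX11 was overexpressed. Reads of a construct and of the resident gene cannot be told apart in these tables. The mean increase of Plaat3 was 19.8 RPKM. Plaat1, a relative of Plaat3 that was named after its values had been seen, was also under the filter. It had 0.623 and 0.314 RPKM in Neuron-PLA, against 1.44 and 1.34 RPKM in Neuron-ctrl, with 43 and 29 reads in Neuron-PLA and 106 and 96 reads in Neuron-ctrl.

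**Figure D1:**
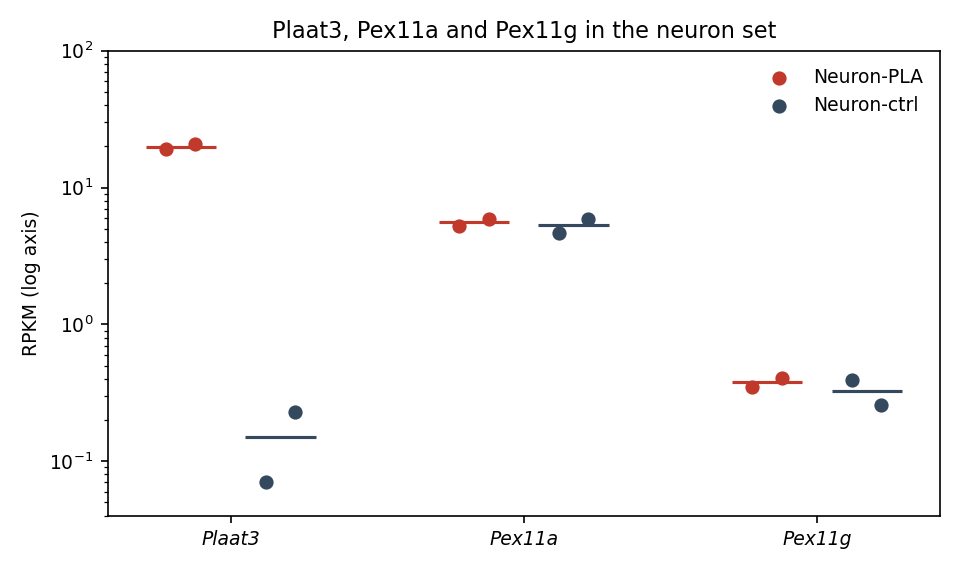
RPKM (log axis) of Plaat3, Pex11a and Pex11g, with 1 point per library and a line at each group mean, Neuron-PLA left of Neuron-ctrl. Plaat3 is separated between the groups, while the points of Pex11a and Pex11g interleave.

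Few genes passed the test. With limma on log2(RPKM + 1) and Benjamini-Hochberg adjustment at 0.05, 98 of 11179 genes were called (0.877%). Of these, 42 rose (0.376%) and 56 fell (0.501%). Across all genes tested the median log2 difference was 0.00 and its SD 0.32. An unadjusted p under 0.05 was reached by 1976 of the 11179 genes, in either direction. Counts of list members at that level below are to be read beside this number. Libraries of the groups did not overlap for 24.7% of tested genes in the direction of Neuron-PLA and for 25.3% in the direction of Neuron-ctrl. The number of calls depended on single libraries. It was 9 without Neuron-PLA replicate 1, 163 without Neuron-PLA replicate 2, 7 without Neuron-ctrl replicate 1 and 11 without Neuron-ctrl replicate 2. In all 4 of these fits 3 genes were called, Plaat3 and Cldn5 among them. Of the 98 genes, at least 97 kept their sign in each of them. With no filter on low values limma called 0 of 18936 genes, with a smallest adjusted p of 0.0987 and 2280 genes at an unadjusted p under 0.05. With a minimum mean of 5 RPKM it called 216, and limma-voom on reads recovered from the RPKM values called 338 of 10889. Protein-coding genes made up 30 of the rises and 49 of the falls, and 8 of the rises and 3 of the falls were small RNAs with under 300 bases of exon.

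The other genes described here that rose most did not belong to 1 pathway of the lists. Smtnl2, a smoothelin-like actin-associated protein, stood at 7.04 and 4.92 RPKM in Neuron-PLA, against 1.78 and 0.784 RPKM in Neuron-ctrl. Its log2 difference was 1.63 (SE 0.27, limma adjusted p = 0.0456). Cwc22, a spliceosome factor that recruits the exon junction complex, had 22.7 and 18.9 RPKM in Neuron-PLA, against 9.31 and 6.58 RPKM in Neuron-ctrl (log2 difference 1.30, limma adjusted p = 0.0315). Copies of Cwc22 exist in some mouse strains, and reads may be shared with them. For both genes every Neuron-PLA library lay above every Neuron-ctrl library, which the rule for choosing them required.

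Nr4a2, a nuclear receptor induced by neuronal activity and expressed in deep cortical and claustral neurons, had 18.2 RPKM in both Neuron-PLA libraries, against 9.33 and 7.27 RPKM in Neuron-ctrl. The log2 difference was 1.06 (SE 0.14, limma adjusted p = 0.0315). It was the called member of the 12 tested immediate early genes. Btg2, another of them, stood at 17.0 and 16.9 RPKM in Neuron-PLA, against 26.8 and 24.7 RPKM in Neuron-ctrl, and did not pass (log2 difference -0.57, limma adjusted p = 0.0602). Bcl2l2, an anti-apoptotic member of the BCL2 family, had 16.1 and 14.7 RPKM in Neuron-PLA, against 6.60 and 7.48 RPKM in Neuron-ctrl (log2 difference 1.03, limma adjusted p = 0.0291). Exons of Bcl2l2 overlap those of Gm20521 over 651 bases on the same strand. Miat, a nuclear long noncoding RNA of neurons, had 33.8 and 34.8 RPKM in Neuron-PLA, against 19.5 and 15.8 RPKM in Neuron-ctrl (log2 difference 0.93, limma adjusted p = 0.0315). Other genes annotated on the same and the opposite strand overlap 2979 of its exon bases.

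Further genes of the 15 largest rises had log2 differences from 0.78 to 1.32. They were Rps2 and Nvl of the ribosome and its assembly, Erdr1, the tRNA pseudouridine synthase-like Pusl1, the Kelch protein Klhl4, the growth factor Pdgfc, the exchange factor Rap1gds1 and the leucine-rich repeat protein Lrrc45. Lrrc45 stood at 75.8 and 75.4 RPKM in Neuron-PLA, against 44.8 and 42.6 RPKM in Neuron-ctrl (log2 difference 0.78, limma adjusted p = 0.0165). Rps2 has several processed copies in the genome and its reads may be shared with them.

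**Figure D2:**
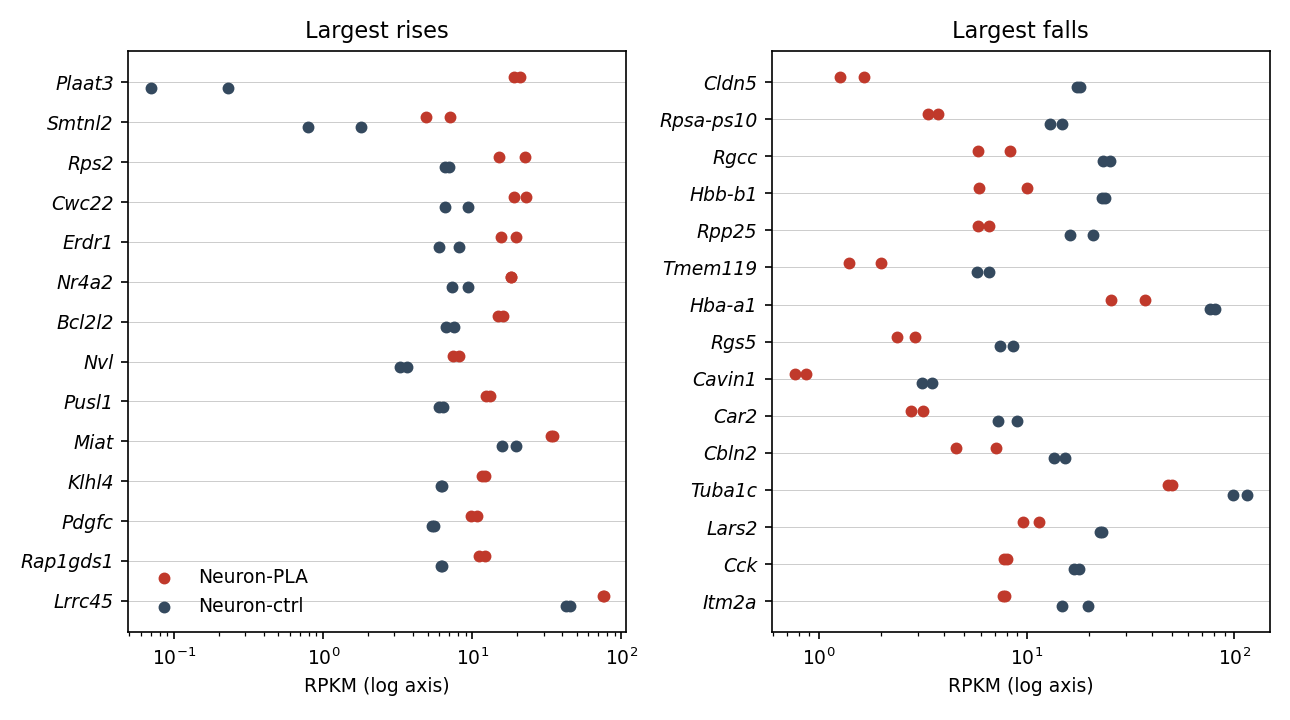
RPKM (log axis) of 14 of the 15 genes with the largest rises and of the 15 with the largest falls, with 1 point per library and Neuron-PLA drawn above Neuron-ctrl in each row. No gene shown has overlapping groups, which the choice of these genes fixed, and Cldn5 has the widest gap among the falls.

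Among the called genes a vascular transcript fell furthest. Cldn5 (mm10 chr16:18776847-18778262, plus strand), the tight junction claudin of brain endothelium, stood at 1.65 and 1.26 RPKM in Neuron-PLA, against 18.0 and 17.4 RPKM in Neuron-ctrl. Reads numbered 49 and 50 in Neuron-PLA, against 569 and 536 in Neuron-ctrl. The log2 difference was -2.94 (SE 0.15, limma adjusted p = 0.000666). Both Neuron-PLA libraries lay far under both Neuron-ctrl libraries, and the choice of the furthest fall favoured such a gap.

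Of the 18 listed endothelial genes, 4 passed the level filter, and a gene that passed only through its Neuron-ctrl level had to differ. Besides Cldn5, Itm2a was called, a membrane protein enriched in brain endothelium. It had 7.72 and 7.88 RPKM in Neuron-PLA, against 14.8 and 19.8 RPKM in Neuron-ctrl (log2 difference -1.04, limma adjusted p = 0.0393). The glucose transporter Slc2a1 and the thyroid hormone transporter Slco1c1 were not called. Of the 14 endothelial genes under the filter, 13 had both Neuron-PLA libraries below both Neuron-ctrl libraries, beside 14.7% of all genes with a mean above 0 and under 1 RPKM. Kdr, the receptor for vascular endothelial growth factor, was at 0 and 0.0355 RPKM in Neuron-PLA, against 0.976 and 0.974 RPKM in Neuron-ctrl. Cdh5, the cadherin of endothelial junctions, was at 0 in both Neuron-PLA libraries, against 0.245 and 0.208 RPKM in Neuron-ctrl. These genes lay under the level filter and were not tested, and each of them was scarce in both groups.

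Listed genes of cells that accompany vessels also gave 2 calls. Rgs5, a signalling regulator that marks pericytes, had 2.39 and 2.90 RPKM in Neuron-PLA, against 8.63 and 7.42 RPKM in Neuron-ctrl (log2 difference -1.31, limma adjusted p = 0.0291). Sparc, a matrix glycoprotein, was the other called gene among 7 tested pericyte and meningeal genes, at 4.02 and 3.98 RPKM in Neuron-PLA, against 8.37 and 8.82 RPKM in Neuron-ctrl (log2 difference -0.94, limma adjusted p = 0.0397). Fn1 of the same list pointed the other way, at 8.36 and 8.12 RPKM in Neuron-PLA, against 5.52 and 4.66 RPKM in Neuron-ctrl, and was not called (log2 difference 0.61, limma adjusted p = 0.109). Cavin1, a coat protein of caveolae, had 0.863 and 0.764 RPKM in Neuron-PLA, against 3.14 and 3.49 RPKM in Neuron-ctrl (log2 difference -1.25, limma adjusted p = 0.0469), and so passed the filter through its Neuron-ctrl level.

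Adult globins were present at low level in all 4 libraries. Hba-a1 stood at 25.5 and 37.1 RPKM in Neuron-PLA, against 75.9 and 80.8 RPKM in Neuron-ctrl (log2 difference -1.32, limma adjusted p = 0.0234). Hbb-b1 had 5.89 and 10.01 RPKM in Neuron-PLA, against 23.8 and 23.0 RPKM in Neuron-ctrl (log2 difference -1.49, limma adjusted p = 0.0315). Each globin has near-identical copies, between which reads may be split. The embryonic globins Hbb-bh1 and Hbb-y were at 0 in all 4 libraries.

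Microglial genes were lower as well, with 2 called of 15 tested. Tmem119, a surface protein of resident microglia, had 1.40 and 1.98 RPKM in Neuron-PLA, against 6.61 and 5.79 RPKM in Neuron-ctrl (log2 difference -1.43, limma adjusted p = 0.0315). C1qb, a chain of the first complement component, had 14.5 and 16.3 RPKM in Neuron-PLA, against 27.4 and 30.8 RPKM in Neuron-ctrl (log2 difference -0.88, limma adjusted p = 0.0315). C1qa and the receptor Csf1r did not pass, with log2 differences of -0.72 and -0.49. In 10 of the 15 tested genes the Neuron-PLA libraries lay wholly below, and in 0 wholly above, beside 25.3% and 24.7% of all tested genes. At an unadjusted p under 0.05, 7 were lower and 0 higher, and limma-voom called 3 as lower. The list's median log2 difference was -0.43, beside 0.00 over all genes.

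Interneuron genes gave the largest number of calls of any list. Of 27 listed genes of inhibitory interneurons and the ventral forebrain, 21 passed the filter, and 7 fell while 0 rose. At an unadjusted p under 0.05, 15 of them were lower and 0 higher, and limma-voom called 9 as lower and 0 as higher. In 18 of 21 the Neuron-PLA libraries lay wholly below the Neuron-ctrl libraries, beside 25.3% of all tested genes. The median log2 difference was -0.74. It lay from -0.77 to -0.70 when any 1 library was left out. The number of calls fell to 0 without Neuron-PLA replicate 1, to 3 without Neuron-PLA replicate 2, and to 0 without either Neuron-ctrl library.

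Dlx1, a homeodomain factor that specifies interneurons in the ventral forebrain, had 24.3 and 25.6 RPKM in Neuron-PLA, against 48.7 and 48.9 RPKM in Neuron-ctrl. Its log2 difference was -0.94 (SE 0.09, limma adjusted p = 0.0133). Exons of Dlx1 share 335 bases with its antisense gene on the opposite strand, and whether the counting used strand is not given in the sources used here. Dlx6os1, also called Evf2, is a long noncoding RNA of the Dlx5 and Dlx6 locus. It stood at 14.3 and 13.6 RPKM in Neuron-PLA, against 24.8 and 24.3 RPKM in Neuron-ctrl (log2 difference -0.77, limma adjusted p = 0.0315). Dlx5 had 4.14 and 3.29 RPKM in Neuron-PLA, against 8.34 and 8.46 RPKM in Neuron-ctrl (log2 difference -1.0015, limma adjusted p = 0.0452). The spread inside each group was small beside the distance between the groups for all 3, which their choice by smallest p favoured.

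Sst, the neuropeptide somatostatin and the marker of a large interneuron class, stood at 4.23 and 5.08 RPKM in Neuron-PLA, against 10.3 and 9.38 RPKM in Neuron-ctrl (log2 difference -0.94, limma adjusted p = 0.0452). The other called members, named because they passed, were Gad2, which makes GABA, and the transcription factors Dlx2 and Lhx6. Gad2 had 5.75 and 6.19 RPKM in Neuron-PLA, against 11.7 and 11.0 RPKM in Neuron-ctrl. Lhx6 had 13.4 and 16.0 RPKM in Neuron-PLA, against 24.4 and 25.9 RPKM in Neuron-ctrl. In all 4 genes the higher Neuron-PLA library was below the lower Neuron-ctrl library, which their choice as called genes favoured. The 27 genes together summed to 228 and 239 RPKM in Neuron-PLA, against 339 and 349 RPKM in Neuron-ctrl, and Npy, which other cells also make, gave 103 and 117 RPKM of this in Neuron-PLA and 115 and 128 RPKM in Neuron-ctrl.

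The 250 bases before the RefSeq start of a pair of these genes are shown because both genes fell and each window holds a motif of known transcription factors. In the GENCODE M21 annotation used for exon lengths the starts differ. There Dlx6os1 spans chr6:6820189-6871592, so its window lies inside the gene. Sst spans chr16:23889573-23890958, so its window overlaps the gene. The sequences are from RefSeq (GRCm38.p6) and are written 5′ to 3′ on the strand of the gene, which is minus for both. Capitals mark TAATTA, a core sequence bound by homeodomain factors such as the Dlx proteins, and TGACGTCA, the cyclic AMP response element. Both motifs read the same on either strand.
Dlx6os1, chr6:6869534-6869783: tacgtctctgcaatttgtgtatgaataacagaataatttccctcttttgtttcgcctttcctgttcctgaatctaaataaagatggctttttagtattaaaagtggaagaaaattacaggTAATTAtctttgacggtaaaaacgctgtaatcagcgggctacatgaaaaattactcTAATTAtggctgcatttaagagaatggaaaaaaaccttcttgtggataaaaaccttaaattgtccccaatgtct
Sst, chr16:23890845-23891094: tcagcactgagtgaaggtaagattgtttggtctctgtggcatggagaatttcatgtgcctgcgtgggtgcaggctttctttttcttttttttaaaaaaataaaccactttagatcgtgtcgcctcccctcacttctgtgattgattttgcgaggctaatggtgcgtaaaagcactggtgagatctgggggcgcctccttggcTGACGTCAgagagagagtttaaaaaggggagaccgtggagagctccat
TAATTA occurred in 2 places in the Dlx6os1 window. Of the tested genes, 8638 had such a RefSeq window, and 175 of these windows (2.03%) held TAATTA. TGACGTCA occurred in 260 windows (3.01%). Among 15 tested genes of the interneuron list with a window, each motif was found in 1, so the other called interneuron genes with a window held neither. A match describes the letters and not a bound site.

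Genes of radial glia and astrocytes were lower in Neuron-PLA. Of 16 tested radial glia genes 2 fell and 0 rose, at an unadjusted p under 0.05 there were 8 lower and 0 higher, and limma-voom called 6 as lower and 0 as higher. Fabp7, the fatty acid binding protein of radial glia, stood at 89.2 and 123 RPKM in Neuron-PLA, against 188 and 208 RPKM in Neuron-ctrl (log2 difference -0.91, limma adjusted p = 0.03997). Hes5, a Notch target that keeps progenitors undifferentiated, had 37.5 and 45.5 RPKM in Neuron-PLA, against 73.5 and 67.4 RPKM in Neuron-ctrl (log2 difference -0.76, limma adjusted p = 0.0390). Both genes were lower in Neuron-PLA-1 than in Neuron-PLA-2. Neither overlapped with Neuron-ctrl, which their choice by smallest p favoured. Sox9 and Hopx of the list did not pass, at log2 differences of -0.58 (limma adjusted p = 0.0531) and -1.02 (limma adjusted p = 0.0577).

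Among 11 tested astrocyte genes 3 fell and 0 rose. At an unadjusted p under 0.05 there were 8 lower and 0 higher, and limma-voom called 7 as lower and 0 as higher. Sparcl1, a synaptogenic matrix protein, had 52.2 and 60.8 RPKM in Neuron-PLA, against 101 and 104 RPKM in Neuron-ctrl (log2 difference -0.86, limma adjusted p = 0.0180). Apoe, the lipid carrier that astrocytes and microglia secrete, had 99.9 and 126 RPKM in Neuron-PLA, against 189 and 203 RPKM in Neuron-ctrl (log2 difference -0.80, limma adjusted p = 0.0315). Mlc1, a membrane protein of astrocyte endfeet, had 8.48 and 7.43 RPKM in Neuron-PLA, against 16.2 and 14.02 RPKM in Neuron-ctrl (log2 difference -0.85, limma adjusted p = 0.0456). Gfap, an intermediate filament of mature astrocytes, was low in every library, at 1.65 and 0.877 RPKM in Neuron-PLA, against 0.954 and 1.94 RPKM in Neuron-ctrl. In the oligodendrocyte lineage 0 of 7 tested genes were called by limma or by limma-voom, with 1 lower at an unadjusted p under 0.05.

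Cell division genes were lower in most cases without any call. Of 31 tested genes limma called 0 and limma-voom 0, 6 were lower at an unadjusted p under 0.05, and the median log2 difference was -0.23. Over all genes 1976 of 11179 reached that unadjusted level, in either direction. Aurkb, a mitotic kinase, had 6.25 and 6.43 RPKM in Neuron-PLA, against 11.5 and 9.44 RPKM in Neuron-ctrl (log2 difference -0.64, limma adjusted p = 0.0972).

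Targets of BMP and FGF signalling fell in 3 of 16 tested cases, with 0 rises. At an unadjusted p under 0.05 there were 7 lower and 0 higher, and limma-voom called 3 as lower. Id3, an inhibitor of basic helix-loop-helix factors that BMP induces, stood at 28.4 and 29.5 RPKM in Neuron-PLA, against 52.0 and 61.3 RPKM in Neuron-ctrl (log2 difference -0.94, limma adjusted p = 0.0195). Id2, its paralogue, changed less, with 245 and 249 RPKM in Neuron-PLA, against 326 and 335 RPKM in Neuron-ctrl (log2 difference -0.42, limma adjusted p = 0.0315). Etv5, a transcription factor induced by FGF, had 6.24 and 6.60 RPKM in Neuron-PLA, against 12.6 and 13.5 RPKM in Neuron-ctrl (log2 difference -0.92, limma adjusted p = 0.0315). Both groups were tight and apart for each of the 3 genes, which their choice by smallest p favoured. Spry2, a feedback inhibitor of the FGF pathway, was not called (log2 difference -0.68, limma adjusted p = 0.122). These falls stood beside the lower radial glia and microglia sums given above. The 16 listed astrocyte genes summed to 229 and 252 RPKM in Neuron-PLA, against 404 and 413.5 RPKM in Neuron-ctrl. For the 18 endothelial genes the sums were 29.8 and 34.2 RPKM in Neuron-PLA, against 73.1 and 74.2 RPKM in Neuron-ctrl. The part of these cell types in the falls was not tested.

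Genes shared by all neurons did not pass the test. Of 23 tested pan-neuronal and cytoskeletal genes limma called 0, with 4 higher and 2 lower at an unadjusted p under 0.05, and limma-voom called 4 as higher. The median log2 difference was -0.02. Rbfox3, which encodes the neuronal nuclear antigen NeuN, had 11.3 and 12.0 RPKM in Neuron-PLA, against 6.92 and 7.49 RPKM in Neuron-ctrl (log2 difference 0.62, limma adjusted p = 0.0800). Map1b, a microtubule-associated protein of growing axons, had 420 and 411 RPKM in Neuron-PLA, against 338 and 353 RPKM in Neuron-ctrl (log2 difference 0.26, limma adjusted p = 0.0802). The groups were separate for both genes, which their choice by smallest p favoured.

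Projection neuron genes gave few calls. Lmo4, an upper-layer gene that encodes a LIM-only adaptor, fell to 78.2 and 73.0 RPKM in Neuron-PLA, against 106 and 117 RPKM in Neuron-ctrl (log2 difference -0.56, limma adjusted p = 0.0393). Lmo4 went against most of its list, as 10 of 15 tested upper-layer genes had a positive log2 difference and 5 a negative one. At an unadjusted p under 0.05, 5 were higher and 1 lower, and limma-voom called 3 as higher and 1 as lower. The list's median log2 difference was 0.15, and 0.013 with a trend on exon length removed. Across 12 tested deep-layer genes it was -0.15, with -0.31 without Neuron-PLA replicate 1 and -0.028 without Neuron-PLA replicate 2, and limma and limma-voom both called 0 of them, with 3 lower at an unadjusted p under 0.05. Ldb2, a deep-layer gene, had 24.4 and 29.3 RPKM in Neuron-PLA, against 34.8 and 39.9 RPKM in Neuron-ctrl (log2 difference -0.46, limma adjusted p = 0.123).

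Synaptic receptors and channels gave 1 call. Gria2, the AMPA receptor subunit that makes the channel impermeable to calcium, stood at 62.1 and 61.7 RPKM in Neuron-PLA, against 39.1 and 37.6 RPKM in Neuron-ctrl (log2 difference 0.68, SE 0.08, limma adjusted p = 0.0264). It was the called member of 14 tested glutamate receptor genes. Gria1 pointed the other way without passing, at 23.4 and 19.9 RPKM in Neuron-PLA, against 28.1 and 28.2 RPKM in Neuron-ctrl (log2 difference -0.37, limma adjusted p = 0.165). Of 20 tested voltage-gated channel genes limma called 0 and limma-voom 2 as higher, and 5 were higher and 0 lower at an unadjusted p under 0.05. Their median log2 difference was 0.27, and in 13 of 20 both Neuron-PLA libraries lay above both Neuron-ctrl libraries, beside 24.7% of all tested genes. Among 22 genes of vesicle release limma called 0, 4 were higher and 2 lower at an unadjusted p under 0.05, and limma-voom called 2 as higher and 1 as lower. Of 13 tested GABA receptor and chloride transporter genes limma and limma-voom both called 0, with 2 higher and 2 lower at an unadjusted p under 0.05. Over all genes 1976 of 11179 reached that unadjusted level, in either direction.

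Secreted signals of neurons fell in 3 of 17 tested cases and rose in 0, with 6 lower and 2 higher at an unadjusted p under 0.05, and limma-voom called 4 as lower and 2 as higher. Cck, the neuropeptide cholecystokinin, had 7.81 and 8.04 RPKM in Neuron-PLA, against 16.9 and 18.0 RPKM in Neuron-ctrl (log2 difference -1.04, limma adjusted p = 0.0207). Ntf3, the neurotrophin that binds TrkC, had 20.4 and 24.6 RPKM in Neuron-PLA, against 39.7 and 41.2 RPKM in Neuron-ctrl (log2 difference -0.82, limma adjusted p = 0.0315). Sst was the third. Scg2, a granin of secretory vesicles, was not called, at 15.1 and 16.4 RPKM in Neuron-PLA and at 8.27 and 9.88 RPKM in Neuron-ctrl (log2 difference 0.74, limma adjusted p = 0.0577). Cbln2, a secreted organiser of synapses and among the 15 largest falls, had 7.14 and 4.59 RPKM in Neuron-PLA, against 13.6 and 15.3 RPKM in Neuron-ctrl (log2 difference -1.19, limma adjusted p = 0.0456). Epha3, an ephrin receptor that guides axons, was the called member of 24 tested guidance genes, with 61.7 and 64.0 RPKM in Neuron-PLA, against 40.4 and 44.8 RPKM in Neuron-ctrl (log2 difference 0.55, limma adjusted p = 0.0456).

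The other large falls came from varied genes. Tuba1c, an alpha-tubulin, had 49.9 and 47.6 RPKM in Neuron-PLA, against 115 and 98.5 RPKM in Neuron-ctrl (log2 difference -1.11, limma adjusted p = 0.00928), and reads may be shared with other alpha-tubulin genes. Rgcc, a regulator of the cell cycle that complement induces, had 8.35 and 5.81 RPKM in Neuron-PLA, against 23.2 and 25.2 RPKM in Neuron-ctrl (log2 difference -1.66, limma adjusted p = 0.0144). Lars2, the mitochondrial leucyl-tRNA synthetase, had 9.56 and 11.4 RPKM in Neuron-PLA, against 23.0 and 22.4 RPKM in Neuron-ctrl (log2 difference -1.05, limma adjusted p = 0.0219). The groups did not overlap for these genes, which the rule for choosing them required. Car2, a carbonic anhydrase, and Rpp25, a subunit of RNase P, had log2 differences of -1.20 and -1.43. Rpsa-ps10, a processed pseudogene of a ribosomal protein with a difference of -1.72, may share reads with its parent gene.

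**Figure D3:**
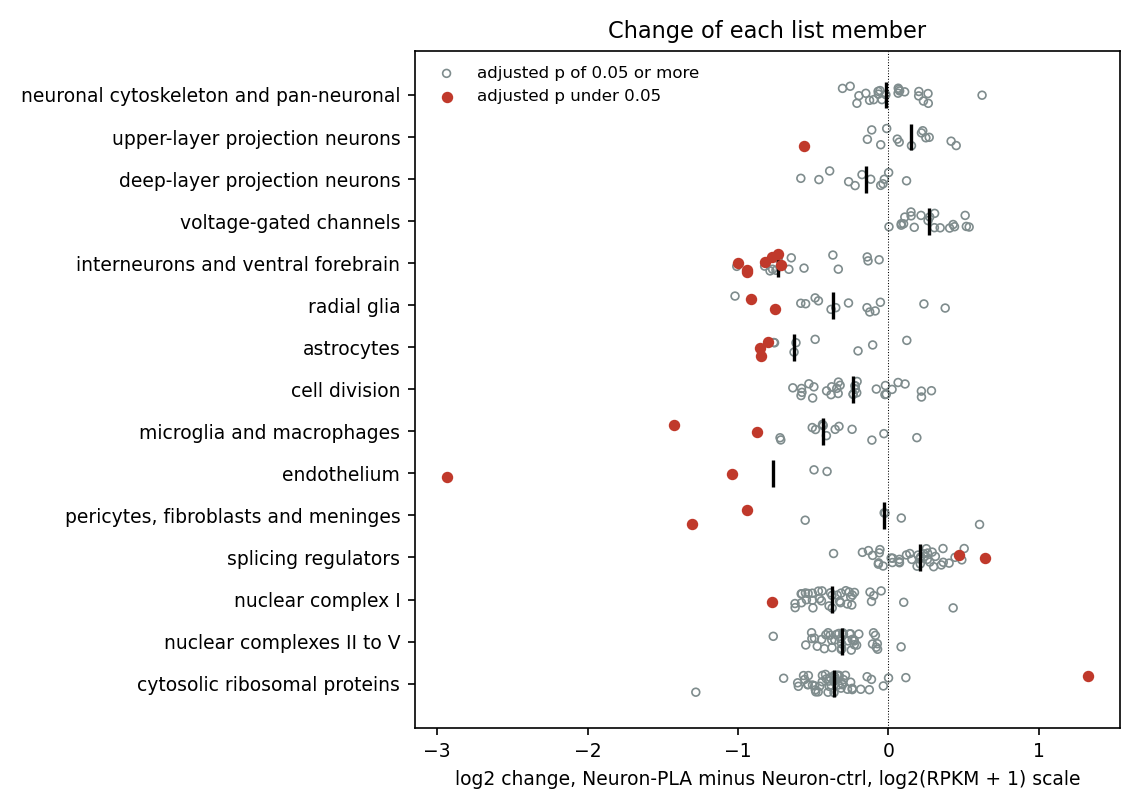
Log2 difference of tested genes, Neuron-PLA minus Neuron-ctrl, in 15 lists, 1 point per gene, filled where the limma adjusted p was under 0.05. All uncalled genes of a list are drawn, and called genes only where the text names them. A black line marks the median of all tested genes of the list. The interneuron and astrocyte medians lie at -0.74 and -0.63, and those of the pan-neuronal and channel lists at -0.02 and 0.27.

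Splicing regulators were higher in most cases. Of 41 tested genes 2 rose and 0 fell, 13 were higher and 1 lower at an unadjusted p under 0.05, and limma-voom called 5 as higher and 0 as lower. Both Neuron-PLA libraries were above both Neuron-ctrl libraries in 24 of 41 genes and below in 5. Over all tested genes these shares were 24.7% and 25.3%. The median log2 difference was 0.21. Srsf5, a serine- and arginine-rich splicing factor, stood at 167 and 168 RPKM in Neuron-PLA, against 125 and 116 RPKM in Neuron-ctrl (log2 difference 0.47, limma adjusted p = 0.0393). Tia1, an RNA-binding protein that promotes use of weak splice sites and forms stress granules, had 23.5 RPKM in both Neuron-PLA libraries, against 15.3 and 14.2 RPKM in Neuron-ctrl (log2 difference 0.64, limma adjusted p = 0.0488). Pnisr and Clk4 of the same list did not pass, with log2 differences of 0.50 (limma adjusted p = 0.0690) and 0.44 (limma adjusted p = 0.116).

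Genes of the respiratory chain and the ribosome were slightly lower as groups, with few calls. Of 37 tested nuclear genes of complex I, 26 had both Neuron-PLA libraries below both Neuron-ctrl libraries, beside 25.3% of all tested genes. Of the 37, 1 fell. It was Ndufa12, at 18.2 and 18.1 RPKM in Neuron-PLA, against 29.5 and 34.4 RPKM in Neuron-ctrl (log2 difference -0.78, limma adjusted p = 0.0359). At an unadjusted p under 0.05, 19 were lower and 1 higher, and limma-voom called 4 as lower. In complexes II to V limma called 0 of 40, 20 were lower and 0 higher at an unadjusted p under 0.05, and limma-voom called 1 as lower. Of 51 tested cytosolic ribosomal protein genes 44 lay wholly below, beside the same 25.3%. Of the 51, 34 were lower at an unadjusted p under 0.05, 0 fell past the adjusted threshold in limma and 7 in limma-voom. Rps2 was the 1 that rose.

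The median log2 differences of these 3 groups were -0.38, -0.31 and -0.36. They were closer to 0 without Neuron-PLA replicate 1, at -0.21, -0.16 and -0.23, and further from it without Neuron-PLA replicate 2, at -0.53, -0.45 and -0.54. Without Neuron-PLA replicate 2 limma called 8 genes of complex I, 5 of complexes II to V and 15 ribosomal protein genes. Of the mitochondrially encoded mRNAs, ND1 fell, at 2188 and 2351 RPKM in Neuron-PLA, against 2976 and 2778 RPKM in Neuron-ctrl (log2 difference -0.34, limma adjusted p = 0.0393).

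Exon length moved with these differences. Coding genes were divided into 10 bins by their summed exon length. The shortest bin, with a median of 1410 bases, had a median log2 difference of -0.22, and the longest, with a median of 12742 bases, had 0.12. The trend was present in Neuron-PLA-1 (-0.27 in the shortest bin and 0.13 in the longest) and in Neuron-PLA-2 (-0.16 and 0.11), each set against the Neuron-ctrl mean. Between the Neuron-ctrl libraries the bins differed by -0.03 and -0.01. Coding genes that fell had a median exon length of 2287 bases and those that rose 4375 bases, beside 4588 bases for all tested coding genes. With a smooth trend on exon length taken out, an alternative chosen after the data had been seen, the medians were -0.26 for complex I, -0.19 for complexes II to V and -0.27 for ribosomal proteins. The same step left channels at 0.17, splicing regulators at 0.16 and interneuron genes at -0.71. With that step 62 of the 98 called genes stayed called and 97 kept their sign. Not among the 62 were ND1 (log2 difference -0.12, limma adjusted p = 0.323) and the ferritin gene Ftl1 (log2 difference -0.12, limma adjusted p = 0.352). Ndufa12 also was not (log2 difference -0.625, limma adjusted p = 0.0555). Whether exon length lies behind a single call was not tested.

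**Figure D4:**
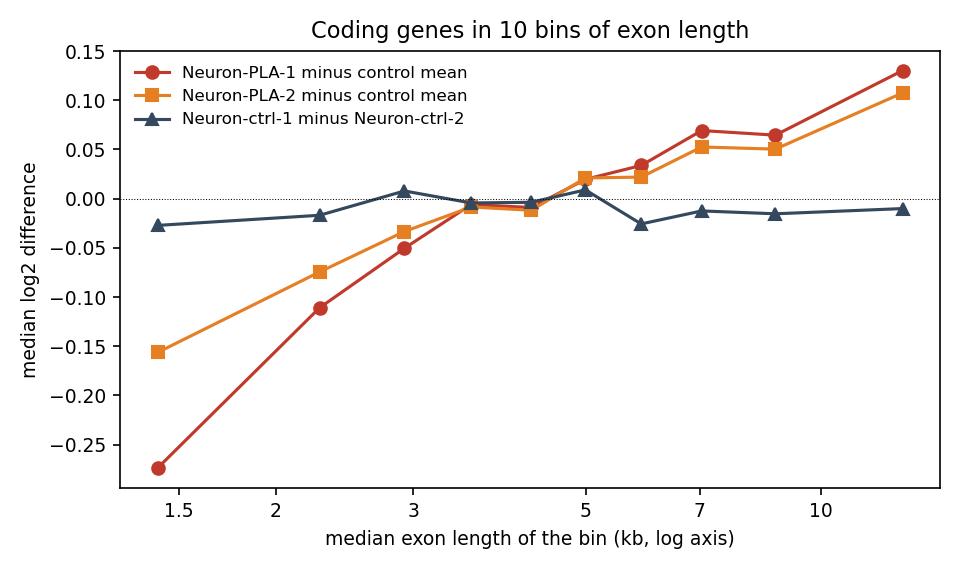
Median log2 difference of coding genes in 10 bins of exon length (kb, log axis), for each Neuron-PLA library against the Neuron-ctrl mean and for the Neuron-ctrl libraries against each other. Both Neuron-PLA lines climb from below 0 in the shortest bin to above 0 in the longest, and the line between the Neuron-ctrl libraries stays near 0.

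Peroxins and peroxisomal enzymes did not pass the test. Of 14 tested peroxins limma and limma-voom both called 0, with 1 lower at an unadjusted p under 0.05. Pex16, which inserts membrane proteins into early peroxisomes, had 8.31 and 9.28 RPKM in Neuron-PLA, against 10.8 and 11.6 RPKM in Neuron-ctrl (log2 difference -0.32, limma adjusted p = 0.262). In the fission machinery, the membrane adaptor Fis1 had 104 and 108 RPKM in Neuron-PLA, against 123 and 132 RPKM in Neuron-ctrl (log2 difference -0.26, limma adjusted p = 0.137). Fis1 was the 1 of 10 tested genes of the fission and PEX11 list with a negative log2 difference, and the list's median was 0.095. In Neuron-PLA 5 of the 10 lay wholly above and 1 wholly below, beside 24.7% and 25.3% of all tested genes. Of 20 tested peroxisomal enzymes limma and limma-voom both called 0, with 1 lower at an unadjusted p under 0.05.

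Ether lipid enzymes behaved likewise. Among 13 tested genes limma called 0, limma-voom called 1 as lower, and 1 was higher and 1 lower at an unadjusted p under 0.05. Plpp3, a lipid phosphate phosphatase, had the smallest p, at 8.91 and 12.8 RPKM in Neuron-PLA, against 17.6 and 19.1 RPKM in Neuron-ctrl (log2 difference -0.73, limma adjusted p = 0.0982). Far1, which makes the fatty alcohol for ether lipids, had 15.8 and 19.3 RPKM in Neuron-PLA, against 14.8 and 15.2 RPKM in Neuron-ctrl, and is named here for its place in the pathway and not by its p. Pla2g6, another phospholipase A, had 8.91 and 8.85 RPKM in Neuron-PLA, against 4.83 and 4.64 RPKM in Neuron-ctrl, and just missed the threshold (log2 difference 0.78, limma adjusted p = 0.0534). Cholesterol synthesis genes had 0 calls among 23 in limma, 1 higher in limma-voom and 2 higher at an unadjusted p under 0.05. Of 17 fatty acid synthesis genes 0 were called by either, and 0 had an unadjusted p under 0.05.

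Stress and interferon programmes had few calls. In the integrated stress response 1 of 27 tested genes fell, Phgdh, the first enzyme of serine synthesis, with 44.5 and 40.7 RPKM in Neuron-PLA, against 68.6 and 67.2 RPKM in Neuron-ctrl (log2 difference -0.66, limma adjusted p = 0.0315). Of the 27, 7 were lower and 1 higher at an unadjusted p under 0.05. In Neuron-PLA 13 lay wholly below and 2 wholly above, beside 25.3% and 24.7% of all tested genes. Ftl1, the ferritin light chain, was the called member of 24 antioxidant and ferroptosis genes (log2 difference -0.29, limma adjusted p = 0.0336). Of the 24, 6 were lower and 0 higher at an unadjusted p under 0.05, and 12 lay wholly below and 0 wholly above. In the unfolded protein response limma and limma-voom called 0 of 22, with 1 higher and 1 lower at an unadjusted p under 0.05. Among 18 tested p53 targets limma called 0, limma-voom 1 as lower, and 4 were lower at an unadjusted p under 0.05. Over all genes 1976 of 11179 reached that unadjusted level, in either direction. Only 10 of 41 interferon genes reached the level filter. Of these limma called 0, limma-voom 1 as higher, and 2 were higher and 3 lower at an unadjusted p under 0.05.

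Ddx3y, an RNA helicase on the Y chromosome, was among the called rises and is named here because Y-linked genes report the sex of the tissue. It had 11.7 and 11.6 RPKM in Neuron-PLA, against 6.48 and 6.55 RPKM in Neuron-ctrl (log2 difference 0.76, limma adjusted p = 0.0488). Eif2s3y was not called, at 10.6 and 12.0 RPKM in Neuron-PLA, against 4.82 and 7.71 RPKM in Neuron-ctrl (log2 difference 0.79, limma adjusted p = 0.118). Xist, made from the inactive X chromosome of female cells, stood at 5.11 and 4.29 RPKM in Neuron-PLA, against 5.83 and 6.51 RPKM in Neuron-ctrl. The Y-linked Kdm5d had 1.13 and 1.39 RPKM in Neuron-PLA, against 0.381 and 0.695 RPKM in Neuron-ctrl. Uty had 1.54 and 1.69 RPKM in Neuron-PLA, against 1.29 and 1.19 RPKM in Neuron-ctrl. All 4 libraries thus held Y-linked and Xist RNA. Each of these Y-linked genes was higher, and Xist lower, in both Neuron-PLA libraries than in both Neuron-ctrl libraries. Whether the share of male tissue differed between the groups, and its part in the other results, was not tested.

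The 11 called small RNA genes had under 300 bases of exon and rested on few reads. Mir7049, chosen after its values had been seen, had 7 and 19 reads in Neuron-PLA, against 0 and 0 in Neuron-ctrl. Its RPKM values of 5.55 and 11.3 in Neuron-PLA are large because its exon has 60 bases. Such genes lie inside longer host genes, here Pak4 and Samd4b, and reads from the host cannot be told apart from reads of the small RNA. Among the longer called genes named above, exons of Cwc22, Rps2, Pusl1, Nvl, Pdgfc, Gria2, Tia1, Hes5, Lhx6, Ftl1 and Dlx6os1 also share bases with other annotated genes, so reads there may belong to either.

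The same genotype was compared in the PLA1 brain set, where the tables were normalised separately and more genes passed. There 1900 of 11623 genes rose in PLA1 against Ctrl1 (16.3%) and 1538 fell (13.2%). The sets share no libraries. Of the 42 genes that rose in the neuron set, 15 rose and 3 fell in the PLA1 set. They made up 35.7% of the rises in the neuron set and 0.789% of the rises in the PLA1 set. Of the 56 that fell in the neuron set, 20 fell and 8 rose in the PLA1 set, which is 35.7% of the falls in the neuron set and 1.30% of those in the PLA1 set. An interaction test in limma over both sets asked whether the log2 differences were unequal. It called 1367 of 11705 genes (11.7%), of which 642 had a higher difference in the neuron set (5.48%) and 725 a lower one (6.19%). That split was 774 and 594 with median-ratio scaling and 792 and 559 with upper-quartile scaling. The count of calls was 890 without Neuron-ctrl replicate 2, 848 without PLA1 replicate 2, 636 without Ctrl1 replicate 1 and 744 without Ctrl1 replicate 2.

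Plaat3 did not differ between the sets past the threshold, with a log2 difference of 4.19 in the neuron set and 4.46 in the PLA1 set (interaction -0.27, SE 0.20, limma adjusted p = 0.429). Cldn5, which fell in the neuron set, was nearly absent from the PLA1 set, with 0 and 0.0394 RPKM in PLA1, against 0 and 0.0671 RPKM in Ctrl1 (interaction -2.92, limma adjusted p = 0.000247). At that level a fall in the PLA1 set could not be seen.

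Among the other genes with the largest interaction values, 4 were lower in the neuron set. Fgf15, a growth factor of progenitor zones, was at 0.249 and 0 RPKM in Neuron-PLA, against 0 and 0.151 RPKM in Neuron-ctrl. It stood at 58.5 and 63.9 RPKM in PLA1, against 2.06 and 1.63 RPKM in Ctrl1. Sesn2, a stress-induced sestrin, had 2.52 and 2.76 RPKM in Neuron-PLA, against 4.57 and 6.58 RPKM in Neuron-ctrl, and 82.7 and 88.6 RPKM in PLA1, against 20.8 and 20.5 RPKM in Ctrl1. The interaction values of Fgf15, Hhip, Egr1 and Sesn2 were -4.39, -2.86, -2.84 and -2.84. On the positive side AW112010, Ngfr, Txnip, Tmem37 and Eif2s3y had 2.63, 2.58, 2.10, 2.08 and 2.07. AW112010 was listed at 0 in all 4 libraries of the neuron set, where a fall could not be seen.

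Several lists moved unequally in the sets, which is described here by counts and medians. Of 21 tested interneuron genes the median log2 difference was -0.74 in the neuron set, and over the 14 tested in the PLA1 set it was also -0.74, with 8 fallen there. Microglial genes had medians of -0.43 in the neuron set and -1.08 in the PLA1 set. Radial glia genes had a median of -0.37 in the neuron set and 0.53 in the PLA1 set, where 12 of 20 rose, and the interaction was called as lower for 10 of 20. Cell division genes had a median of -0.23 in the neuron set and 0.64 in the PLA1 set, with the interaction lower for 23 of 32. Interferon genes, of which 39 of 41 rose in the PLA1 set, had the interaction lower for 29 of 40. Splicing regulators had medians of 0.21 and 0.31 and 3 of 41 interaction calls.

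**Figure D5:**
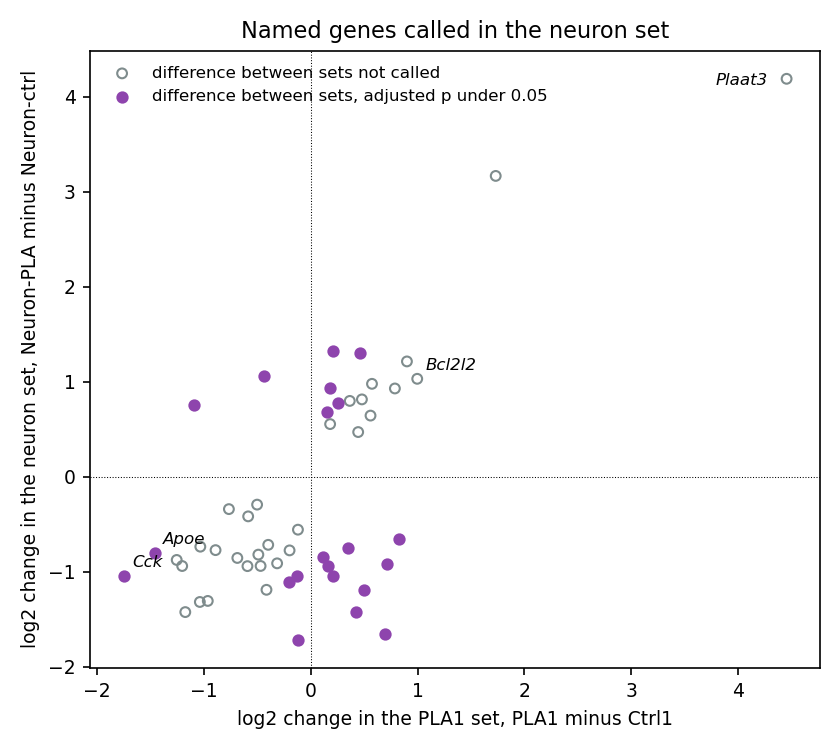
Log2 difference in the neuron set against that in the PLA1 set, for named genes called in the neuron set and tested in both sets, filled where the interaction adjusted p was under 0.05. Plaat3 lies at 4.46 on the horizontal and 4.19 on the vertical axis.

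The embryonic stage libraries, 1 per stage, gave a last comparison without a test. Of 30 coding genes that rose, 19 had a higher level at embryonic days 16 and 18 than at days 13 and 14, and of 49 that fell, 29 did. The share over all tested coding genes was 45.1%.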

How the data were processed

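RNA was extracted with Trizol, per the labels' protocols. The submitters' processing notes name STAR 2.7.9a, HTSeq 0.6.0 and the mm10 build. The authors deposited 1 table per experiment with RPKM values for 32941 genes, and the 4 libraries of the neuron set share a table. RPKM divides by exon length and library total, so it corrects neither for a bias with length nor for differences in RNA composition. Library totals were recovered from the steps of low RPKM values with GENCODE M21 exon lengths, which 32009 IDs (97.2%) had. Within 0.01 of a whole number, 97.5% to 97.8% of values came out as whole reads. Whether the counting used strand is not given in the sources used here.

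Genes whose mean reached 1 RPKM were tested on log2(RPKM + 1) with limma 3.58.1 with a mean-variance trend (R 4.3.3), adjusted by Benjamini-Hochberg over all tested genes, with a threshold of 0.05. The interaction was the log2 difference in the neuron set minus that in the PLA1 set, fitted over all 8 libraries of both. A permutation of 2 against 2 libraries cannot reach the threshold, so no such test was used. The fits were tested on simulated data. Tables and figures used Python 3.11.15, pandas 2.3.3 and matplotlib 3.10.9.

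Gene lists, members and tests were chosen with earlier results of these data known. Named genes were Plaat3 and PEX11 genes, the 15 largest called rises and falls whose groups did not overlap and whose higher group mean was at least 2 RPKM (clone, predicted and small RNA names left out), up to 4 genes of smallest adjusted p per list, and the 5 largest interaction differences in each direction. Others are named as exceptions where they appear, and some results under these rules are not reported here. Alternatives were another pseudocount, filter and scaling, each library left out, a replicate term, limma-voom and, chosen after seeing the data, removal of an exon length trend by loess and of genes under 300 bases of exon.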

Additional observations from a re-analysis of the deposited data

Results flagged for a closer look

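The log2 differences of 10 named genes were unequal in the neuron set and the PLA1 set by the limma interaction test. The value given for each is the log2 difference in the neuron set minus that in the PLA1 set. Cldn5 was nearly absent from the PLA1 set and AW112010 from the neuron set, so a fall there could not be seen. For these genes the value gives the change in the other set.

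Of the lower values, Fgf15 had -4.39 (limma adjusted p = 5.77e-05), Cldn5 -2.92 (limma adjusted p = 0.000247) and Hhip -2.86 (limma adjusted p = 0.000369). Hhip, a Hedgehog-binding inhibitor, was at 0.194 and 0.0823 RPKM in Neuron-PLA, against 0.0542 and 0.309 RPKM in Neuron-ctrl, and at 6.33 and 6.27 RPKM in PLA1, against 0.0054 and 0.0681 RPKM in Ctrl1. Egr1, an activity-induced transcription factor, had -2.84 (limma adjusted p = 0.000526), with 6.60 and 7.40 RPKM in Neuron-PLA, against 8.96 and 7.63 RPKM in Neuron-ctrl. In the PLA1 set it had 10.6 and 15.1 RPKM in PLA1, against 0.862 and 1.63 RPKM in Ctrl1. Sesn2 had -2.84 (limma adjusted p = 0.000148).

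Of the higher values, AW112010 had 2.63 (limma adjusted p = 0.00169), with 0 in all 4 libraries of the neuron set, and with 0.385 and 0.139 RPKM in PLA1, against 8.94 and 5.08 RPKM in Ctrl1. Ngfr, the low-affinity neurotrophin receptor, had 2.58 (limma adjusted p = 0.00415), with 5.36 and 2.59 RPKM in Neuron-PLA, against 2.47 and 0.975 RPKM in Neuron-ctrl. In the PLA1 set Ngfr had 6.002 and 6.294 RPKM in PLA1, against 21.6 and 23.2 RPKM in Ctrl1. Txnip, an inhibitor of thioredoxin, had 2.10 (limma adjusted p = 0.000387), with 11.9 and 14.8 RPKM in Neuron-PLA, against 11.6 and 8.98 RPKM in Neuron-ctrl, and with 9.86 and 8.69 RPKM in PLA1, against 33.9 and 33.0 RPKM in Ctrl1. Tmem37 had 2.08 (limma adjusted p = 0.00807). The Y-linked Eif2s3y had 2.07 (limma adjusted p = 0.00173), with 1.18 and 1.26 RPKM in PLA1, against 4.78 and 4.04 RPKM in Ctrl1.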

How the results depend on the processing

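Against 98 calls (42 rises, 56 falls), limma called 0 with no filter on low values (0 rises, 0 falls), 216 at a minimum mean of 5 RPKM (83 rises, 133 falls) and 153 without genes under 300 bases of exon (97 falls). Limma-voom called 338 (186 rises, 152 falls). With an exon length trend removed 70 were called, with 34 falls. Leaving out 1 library gave 7 to 163 calls, 4 to 42 rises and 1 to 121 falls. The cause of these shifts was not tested. A pseudocount of 0.1 gave 75 calls, median-ratio scaling 99 and upper-quartile scaling 122. The labels do not say whether same-numbered replicates were paired. Their deviations from the group means correlated at 0.05. With 2 libraries a group both pairs give the same value, which cannot settle pairing. A replicate block gave 54 calls (23 rises, 31 falls), 46 of them among the 98. The interaction calls fell to 761 with no filter (380 higher, 381 lower), lay from 636 to 1218 when 1 library was left out (321 to 544 higher, 315 to 674 lower), and numbered 1438 with the replicate block.

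Of 57 named called genes, 0 changed sign under any alternative that tested them. All 57 stayed called under both scalings, 54 of 56 with limma-voom, 47 with the pseudocount of 0.1, 32 with the replicate block, 41 with the exon length trend removed, 0 with no filter on low values, and 2 to 30 when 1 library was left out. Uncalled values that changed sign were those of Npy (0.11 with the exon length trend removed), Gfap (from -0.40 to 0.19 when 1 library was left out), Pex11a (from -0.071 to 0.21 likewise) and the interaction of Plaat3 (0.54 with a pseudocount of 0.1). With 2 libraries a group, a fit that leaves 1 out assumes that the lone library varies like the others. Genes with few reads, such as the small RNAs and the endothelial genes under 1 RPKM, are limited by depth.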

Other observations

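Lists not described above gave few calls. Of 28 tested genes of autophagy and the lysosome limma called 0, and the median log2 difference was -0.11. In Neuron-PLA 17 lay wholly below and 4 wholly above, beside 25.3% and 24.7% of all tested genes. There were 2 higher and 3 lower at an unadjusted p under 0.05, and limma-voom called 0. Among 22 tested glycolytic genes limma called 0, with 1 higher and 7 lower at an unadjusted p under 0.05, and limma-voom called 1 as higher and 1 as lower. Aldoc, an aldolase that astrocytes make, had 15.6 and 14.2 RPKM in Neuron-PLA, against 22.2 and 24.5 RPKM in Neuron-ctrl (log2 difference -0.62, limma adjusted p = 0.0625). Pfkp, a phosphofructokinase, pointed the other way, at 10.4 and 9.82 RPKM in Neuron-PLA, against 4.90 and 6.24 RPKM in Neuron-ctrl (log2 difference 0.77, limma adjusted p = 0.0757).

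Of 10 tested genes of intermediate progenitors limma called 0, with 1 higher and 2 lower at an unadjusted p under 0.05, and limma-voom called 1 as lower. Calb2, the calcium-binding protein calretinin, is listed with Cajal-Retzius cells and is also made by interneurons. It had 4.04 and 5.80 RPKM in Neuron-PLA, against 10.1 and 11.5 RPKM in Neuron-ctrl (log2 difference -1.01, limma adjusted p = 0.0539). Ncan, the brain proteoglycan neurocan, had 183 and 187 RPKM in Neuron-PLA, against 234 and 236 RPKM in Neuron-ctrl (log2 difference -0.34, limma adjusted p = 0.0520).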
